A study of Mus musculus with 6 samples.

Results

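The mRNA transcript abundance of the liver carboxylesterases was compared between DUhTP mice and DUC control mice. The set held 10 listed genes of the Ces1, Ces2 and Ces3 subfamilies, and every probe set whose only gene symbol in the array annotation was one of them was taken. This gave 9 of the 22626 probe sets tested, for 7 of the 10 genes, among 12393 genes that had a probe set of their own. Ces3a and Ces3b shared 1 probe set, which the rule left out, and no probe set under the symbol Ces2c was used here. The genes were selected on values of this same contrast. The differences between the lines given for them are therefore a description of these arrays, and nothing is read from how many of them passed a threshold.

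DUhTP (marathon) mice come from a long term selection for high treadmill performance, and DUC mice are the unselected controls. Both lines go back to a non-inbred population made by crossing outbred and inbred mice, and all animals were males of 70 days. RNA from the liver was measured on Affymetrix Mouse Genome 430A arrays, 3 for DUhTP and 3 for DUC. The methods speak of pools of mice and the labels of a single mouse, so the array was taken as the replicate, and SDs and p-values cover only the spread among arrays, which may be technical. With 1 line on each side, effects of the selection and any other difference between the lines cannot be told apart. In whole liver RNA, fewer cells of a type and less RNA per cell cannot be told apart either.

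Carboxylesterases are serine hydrolases that cleave ester, amide and thioester bonds, and most of them lie in the lumen of the endoplasmic reticulum of hepatocytes. They are known for activating or clearing ester drugs and for hydrolysing triacylglycerol, cholesteryl ester and retinyl ester. Some members mobilise stored triacylglycerol for very low density lipoprotein (VLDL) assembly. In the mouse the family was expanded by gene duplication. The genes lie in tandem on chromosome 8, so that neighbours are close in sequence.

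By RefSeq gene order (GRCm38.p6), 1 cluster runs Ces1a, Ces1b, Ces1c, Ces1d, Ces1e, Ces1f, Ces1g, Ces1h and Ces5a. The other runs Ces2a, Ces2b, Ces2c, Ces2e, Ces2f, Ces2g, Ces2h, Ces3a, Ces3b and Ces4a. RefSeq promoter sequences were given for 7 of the 10 genes and not for Ces1d, Ces1f and Ces3a. The 250 bases before the start of Ces1c, Ces1e and Ces1g are shown, because they share a run of letters while their log2 fold changes, described further on, ran from 0.21 to 2.60. Each is written 5′ to 3′ in the direction of its gene. Capitals mark TTATGTAA, the D-box read by PAR bZIP factors, and in Ces1g also TTTATA, the TATA box TATAAA on the opposite strand. Ces1c lies at chr8:93131284-93131533, Ces1e at chr8:93229620-93229869 and Ces1g at chr8:93337210-93337459, all in GRCm38.p6 and on the minus strand.
Ces1c: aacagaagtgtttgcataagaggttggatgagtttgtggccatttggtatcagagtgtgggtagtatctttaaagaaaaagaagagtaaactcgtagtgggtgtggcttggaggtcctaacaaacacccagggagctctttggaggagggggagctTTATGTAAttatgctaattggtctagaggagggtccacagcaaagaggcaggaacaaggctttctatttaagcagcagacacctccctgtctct
Ces1e: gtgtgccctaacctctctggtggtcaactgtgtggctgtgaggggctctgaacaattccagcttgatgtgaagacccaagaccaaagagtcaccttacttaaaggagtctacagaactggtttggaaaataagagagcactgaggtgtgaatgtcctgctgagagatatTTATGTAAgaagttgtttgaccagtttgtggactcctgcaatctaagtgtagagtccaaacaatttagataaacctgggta
Ces1g: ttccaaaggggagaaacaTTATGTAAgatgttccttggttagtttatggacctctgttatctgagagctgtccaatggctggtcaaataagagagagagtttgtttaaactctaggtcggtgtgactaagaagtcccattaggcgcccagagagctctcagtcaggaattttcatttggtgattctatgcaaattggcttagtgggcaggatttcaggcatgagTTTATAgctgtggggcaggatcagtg

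The D-box letters lay 94 to 87 bases before the start of Ces1c, 81 to 74 before that of Ces1e and 232 to 225 before that of Ces1g. They were chosen as a motif after these sequences had been read and were then searched on both strands of all promoters. They stood in 268 of 32817 promoters of the same length (0.817%), in 5 of the 6 Ces1 genes with a sequence (not in Ces1h) and in 0 of the 9 other carboxylesterases with one. Ces1c and Ces1g, which share the letters, were 53.5% identical over this stretch, Ces1e and Ces1g 46.9% and Ces1c and Ces1e 44.4%. The closest pair of promoters among the 7 genes was Ces2a and Ces2c with 64.6%, and the most distant was Ces1g and Ces3b with 42.6%. Paralogous promoters are not independent, and a match of letters is a description and no site.

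Letters of 7 other motifs were searched too, with no overlap with the D-box in these promoters. TATAAA (12.4% of all promoters) was also found in Ces3b, 30 to 25 bases before its start, beside GTTAAT, an HNF1 half-site (6.44%), and the reverse of TCACCCCAC, a sterol response element (0.497%). AGGTCA, a half-site of nuclear receptors (14%), was found in Ces2a. CAAAGTCCA (HNF4, 0.384%), CACGTG (E-box, 6.02%) and TTGCGCAA (C/EBP, 0.165%) were found in 0 of the 7.

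Values below are PLIER intensities, a linear estimate of hybridization in arbitrary units that is not comparable between probe sets. A log2 fold change is DUhTP minus DUC, and FC is the linear ratio of DUhTP to DUC. Ces1e, Ces1f and Ces1g were called higher in DUhTP at an adjusted p under 0.05, and 0 of the 7 genes were called lower. Of all genes, 1.92% were called higher and 1.4% lower by the same rule, and of all probe sets 1.36% were called higher. With 16 added to every intensity before the log, which damps differences among dim probe sets, Ces2e joined them, so that 4 genes were called, beside 5.31% of all genes higher and 6% lower. The median log2 fold change of the 7 genes was 0.71, against 0.00 over all genes, and 6 of the 7 lay above 0. For 5 of the 9 probe sets all DUhTP arrays lay above all DUC arrays, as for 13.6% of all probe sets. These counts restate the choice of the genes.

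Ces1g, known as a lipase that restrains hepatic fat synthesis and lipid secretion, had the widest difference of the members. Its intensity was 1279.7, 870.2 and 963 in DUhTP and 201, 153 and 157 in DUC. The lowest DUhTP array thus stood 4.33 times above the highest DUC array. The mean was 1038 ± 215 (SD, n = 3) in DUhTP and 170.4 ± 26.4 in DUC, a log2 fold change of 2.60 (SE 0.20) and an FC of 6.05 with a 95% interval of 4.34 to 8.44. The limma adjusted p was 0.00957, and 4.11e-05 with 16 added. Only 32 of the 22626 probe sets, Ces1g included, had a log2 fold change at least as high. Ces1g was the 1 member with an FC over 2.

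Ces1f, one of the microsomal triacylglycerol hydrolases, was measured by a probe set that can match several transcripts, so signal of close paralogs may enter its value. It had 3827, 4264 and 4560.3 in DUhTP and 2439, 2284 and 2284 in DUC. The lines did not overlap, and the DUC arrays lay close together. The log2 fold change was 0.85 (SE 0.12), an FC of 1.80 with a 95% interval of 1.48 to 2.19 and an adjusted p of 0.0314.

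Ces1e, also called egasyn, binds beta-glucuronidase and holds it in the endoplasmic reticulum. It had 986, 1105 and 1125 in DUhTP and 655, 672 and 612 in DUC, again without overlap. The log2 fold change was 0.73 (SE 0.11), an FC of 1.66 with a 95% interval of 1.37 to 2.0 and an adjusted p of 0.0383. Gusb, the beta-glucuronidase that egasyn retains, had a mean of 242 ± 26.3 in DUhTP and 243 ± 7.07 in DUC, with a log2 fold change of -0.01 and an adjusted p of 0.967.

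The calls of Ces1e and Ces1f were lost whenever any 1 array was left out, with adjusted p from 0.0878 to 0.151 for Ces1e and from 0.0710 to 0.135 for Ces1f. That of Ces1g was lost without DUC replicate 2 (0.0633) or DUC replicate 3 (0.0638). Over all probe sets, 546 were called with every array and 1 to 122 under these removals. With 16 added, all 3 genes passed under each of the 6 removals, where the adjusted p was at most 0.0309 for Ces1e, 0.0167 for Ces1f and 0.00100 for Ces1g.

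Ces1c, the esterase that is secreted into plasma in rodents, was higher in each DUhTP array but by little. It had 6350.5, 6188 and 6487 in DUhTP and 5517, 5300.1 and 5593 in DUC. Its log2 fold change of 0.21 had a 95% interval of -0.03 to 0.45 and an adjusted p of 0.282.

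Ces1d is triacylglycerol hydrolase, the member best known for mobilising stored fat for VLDL. It was read by 3 probe sets, and all of them overlapped between the lines. The brightest had 4298, 3356 and 4013 in DUhTP and 4379.6, 3845 and 3772 in DUC, with a log2 fold change of -0.04, a 95% interval of -0.39 to 0.30 and an adjusted p of 0.890. The other 2 gave log2 fold changes of -0.08 and -0.06. These 2 are of the kinds that can match several transcripts, so other signal may enter them, and the 3 are not independent readings. The sign of all 3 turned when DUhTP replicate 2, the lowest array, was left out, and that of the brightest also without DUC replicate 1. The interval spans 0 on both sides, so neither a difference nor equal abundance was shown.

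**Figure D1:**
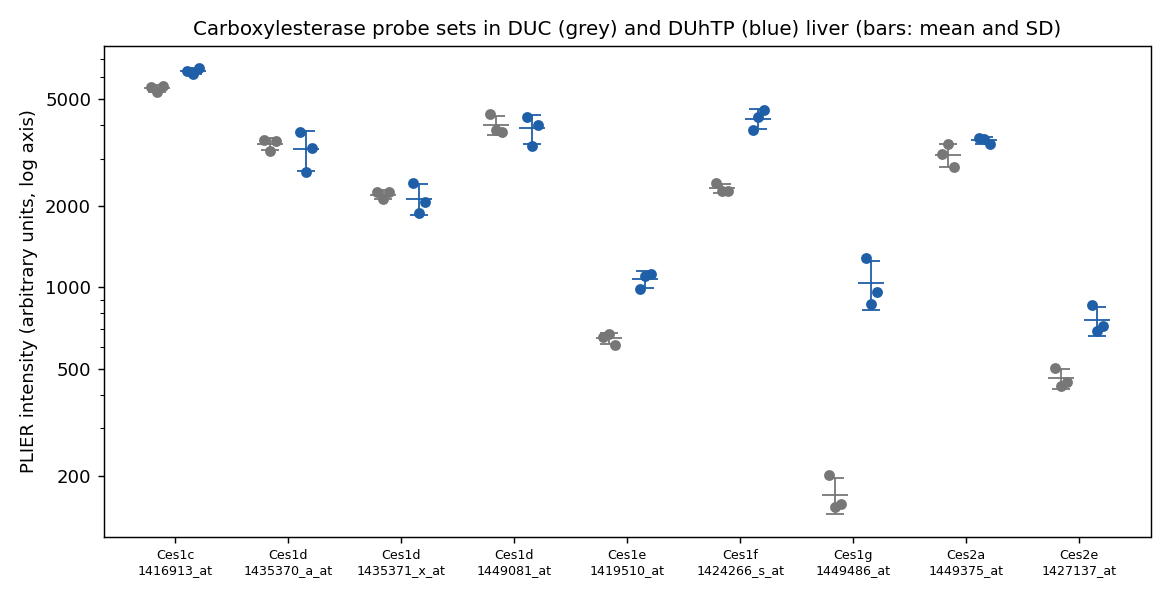
PLIER intensity (log axis) of the 9 carboxylesterase probe sets in the 3 DUC arrays (grey) and the 3 DUhTP arrays (blue); points are arrays, and the bars give mean and SD. The lines separate for Ces1c, Ces1e, Ces1f, Ces1g and Ces2e, with Ces1g at 170.4 against 1038, and overlap for Ces1d and Ces2a; heights of different probe sets are not comparable.

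The Ces2 genes cleave esters with a large alcohol group and have been linked to diacylglycerol and retinyl ester hydrolysis. Ces2e had 861, 687 and 716 in DUhTP and 504, 430.3 and 446 in DUC. The lines did not overlap, but the adjusted p was 0.0630, with a log2 fold change of 0.71 (SE 0.14) and an FC of 1.64 with a 95% interval of 1.29 to 2.07. With 16 added its adjusted p was 0.00967, and it then passed in 4 of the 6 removals of an array, the exceptions being DUC replicate 2 and DUC replicate 3.

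Ces2a, counted among the hepatic triacylglycerol and diacylglycerol hydrolases, had 3589, 3543 and 3396 in DUhTP and 3113, 3410.1 and 2796 in DUC. The second DUC array lay above the lowest DUhTP array. The log2 fold change of 0.18 had a 95% interval of -0.11 to 0.47 and an adjusted p of 0.436.

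Ces3a and Ces3b, liver esterases of lipid turnover, could be seen only on the probe set that carries both symbols. It had 7968, 7618 and 7523 in DUhTP and 7507, 7135 and 7252 in DUC, with a log2 fold change of 0.08 and an adjusted p of 0.703. The signal of either gene cannot be told apart from that of the other there.

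Of the 9 further genes of the family, 2 had a probe set of their own. Ces2g, a further gene of the Ces2 subfamily, had 282, 287 and 309 in DUhTP and 139, 121 and 177 in DUC. It was called higher, with a log2 fold change of 1.02, an FC of 2.03 and an adjusted p of 0.0446. Ces4a was dim in both lines, with means of 18.0 and 18.2 and a log2 fold change of -0.01.

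Along the Ces1 cluster, the log2 fold change of the brightest probe set was 0.21 for Ces1c, -0.04 for Ces1d, 0.73 for Ces1e, 0.85 for Ces1f and 2.60 for Ces1g. The 3 called genes were thus next to each other, at the Ces1g side, which describes genes chosen on this contrast. The calls of Ces1e and Ces1f were lost with any 1 array left out. Signal of close paralogs may enter the Ces1f probe set. No probe set of Ces1a or Ces1b, at the other end, was used here. No probe set of Ces1h, beyond Ces1g, was used here. In the other cluster the values were 0.18 for Ces2a, 0.71 for Ces2e, 1.02 for Ces2g, 0.08 for the Ces3a and Ces3b probe set and -0.01 for Ces4a.

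**Figure D2:**
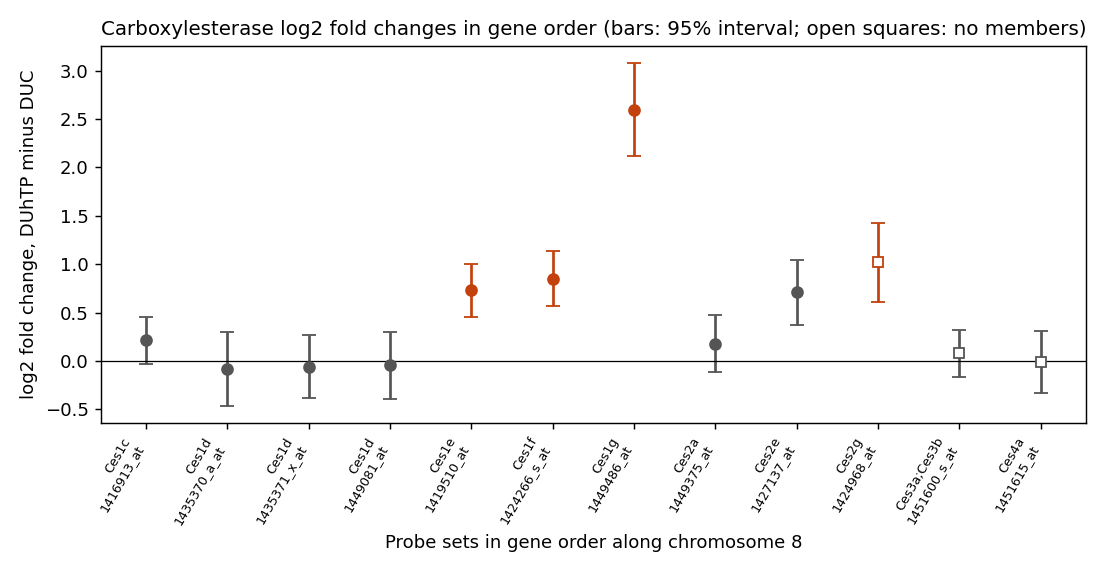
Log2 fold change, DUhTP minus DUC, of each carboxylesterase probe set in gene order along chromosome 8; bars are 95% intervals, filled circles are the listed genes, open squares the other probe sets of the family, and orange marks an adjusted p under 0.05. The values climb from -0.04 at the brightest Ces1d probe set to 2.60 at Ces1g, and Ces2g is the one orange value in the Ces2 and Ces3 cluster.

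Genes that start within 500 kb of a member were read as a description of the surrounding region. There were 27 of them with a probe set, and 2 were called higher (1.92% of all genes) and 0 lower. One was Ces2g. The other was Car7, a carbonic anhydrase near Ces2a, with 28.2, 39.7 and 60.2 in DUhTP and 12.1, 7.80 and 11.2 in DUC, a log2 fold change of 2.0 and an adjusted p of 0.0435. Both calls were lost whenever any 1 array was left out. With 16 added 3 were called higher, Cklf beside these, and 2 lower, Nae1 and D230025D16Rik, against 5.31% and 6% of all genes. Cklf and D230025D16Rik were called on a dimmer probe set only. Their brightest had adjusted p of 0.828 and 0.189 in that limma fit, and that of Cklf had a log2 fold change of -0.08 without the constant. The median log2 fold change of the 27 was -0.02. Only 3 neighbours lay by the Ces1 cluster, Irx6, Mmp2 and Slc6a2, and their log2 fold changes ran from -0.23 to 0.19, with 0 called in either fit.

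On these arrays the deviations of the members within a line did not all run the same way. Each array's deviation from its line mean was correlated between the brightest probe sets of each pair, over 6 arrays and 21 pairs, as a description. The median r was 0.08, 12 of the 21 were above 0, and they ran from -0.82 (Ces1c and Ces2a) to 0.99 (Ces1g and Ces2e). Ces1g, Ces1d and Ces2e went together, with r of 0.90 for Ces1d and Ces1g and 0.86 for Ces1d and Ces2e. Ces1e and Ces1f went together with 0.79 but ran against Ces2e, with -0.64 and -0.42. The genes called higher thus fell on both sides: DUhTP replicate 1 was the highest DUhTP array for Ces1g and the lowest for Ces1e and Ces1f. The arrays of a pair are shared, so their common technical deviations enter every r. With 6 arrays and the line means removed, high and low r can also arise between unrelated genes, so no grouping of the members is concluded.

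**Figure D3:**
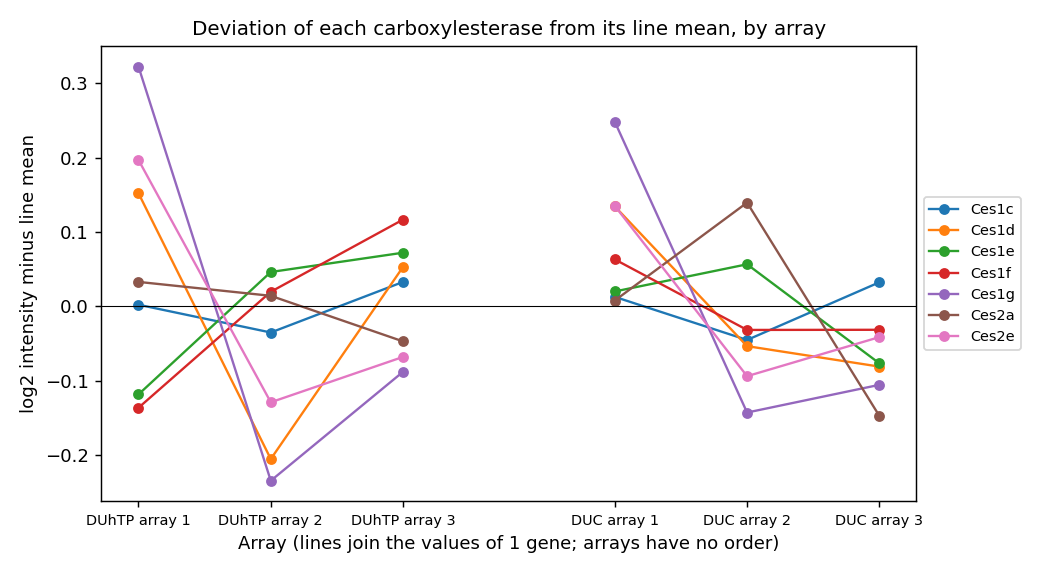
Deviation of log2 intensity from the line mean for the 7 members on each array, with a line joining the values of 1 gene; arrays have no order. DUhTP array 1 is high for Ces1g, Ces2e and Ces1d and low for Ces1e and Ces1f, and the spread is largest for Ces1g.

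The genes most like Ces1g over the 6 arrays, among probe sets with a mean of at least 100, were Lipa (r = 0.999), Dhrs1 (0.997) and Serpina12 (0.997). Line means were left in, so each r includes the difference between the lines on which the members were selected. The genes named were also the highest of all that were compared, and no shared control is read from them. Lipa, lysosomal acid lipase, differed at a much smaller scale than Ces1g, with a log2 fold change of 0.27 and an adjusted p of 0.192 on that probe set. Of its other probe sets, one gave 0.53 with an adjusted p of 0.0908, and one overlapped between the lines and gave -0.03 with 0.940. Serpina12, the secreted inhibitor vaspin, had 395 ± 68.4 in DUhTP and 35.7 ± 5.32 in DUC, a log2 fold change of 3.46 and an adjusted p of 0.00708. Dhrs1, a short chain dehydrogenase, had a log2 fold change of 0.83 and an adjusted p of 0.0356. The genes most like the Ces1d probe set with the lowest log2 fold change were Mrpl13 (0.990), Yaf2 (0.987) and Cyp2b10 (0.979), and their log2 fold changes ran from -0.08 to -0.04.

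Other lipases act on the same neutral lipids as the carboxylesterases. Of 15 neutral lipid hydrolases measured, 0 were called higher and 2 lower. Over all genes 1.92% were called higher and 1.4% lower, and these shares stand beside the counts of the lists below too. Lpl, which hydrolyses lipoprotein triacylglycerol at the vessel wall, had 73.8, 114 and 116 in DUhTP and 412, 314 and 330.0 in DUC, a log2 fold change of -1.81 and an adjusted p of 0.0257. Pnpla2 (ATGL), the first lipase of lipid droplet breakdown, had 396, 439 and 395 in DUhTP and 949.5, 948 and 1114 in DUC, a log2 fold change of -1.29 and an adjusted p of 0.0147. These probe sets did not overlap between the lines. A second, dim probe set of Pnpla2 did, with means of 14.5 and 14.9 and a log2 fold change of -0.04. Aadac, a microsomal esterase with substrates like those of the carboxylesterases, overlapped, with a log2 fold change of 0.28 and an adjusted p of 0.402. With 16 added, Lipa was called higher through 1 of its 3 probe sets, with a log2 fold change of 0.53 without the constant. Lipg was then called lower beside Lpl and Pnpla2, but only on a dim probe set, with means of 9.72 in DUhTP and 26.3 in DUC. The brightest Lipg probe set had an adjusted p of 0.109 in that limma fit.

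Of 12 other ester and epoxide hydrolases of foreign compounds, 0 were called in either direction. Pon1 had a log2 fold change of 0.14 and Ephx2 one of -0.06. Bphl, a serine hydrolase that activates ester prodrugs, lay at 2726 ± 125 in DUhTP and 1851 ± 51.3 in DUC, with a log2 fold change of 0.56 and an adjusted p of 0.0546, and it alone of the 12 passed with 16 added.

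Of 13 genes of VLDL assembly and lipid droplets, Plin5 was called lower and 0 were called higher. Plin5 coats lipid droplets and ties them to mitochondria. It had 411, 344 and 310.1 in DUhTP and 725, 743 and 818 in DUC, a log2 fold change of -1.11 and an adjusted p of 0.0282. Apoc3 and P4hb, a subunit of the microsomal triglyceride transfer protein complex, had log2 fold changes of 0.07 and 0.21 and were not called.

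Of 11 genes of cholesteryl and retinyl ester turnover, Rdh11, a retinal reductase, was called higher on 1 probe set, with a log2 fold change of 1.87 and an adjusted p of 0.0228. Its brighter probe set had 0.82 and 0.0715. Aldh1a1 (0.25) and Rbp4 (-0.10), the brightest of the list, were not called. With 16 added, Cyp26a1 and Dhrs3 were called higher too.

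Carboxylesterase genes are known to respond to the nuclear receptors CAR (Nr1i3) and PXR (Nr1i2). Nr1i3 had a log2 fold change of -0.06 and Nr1i2 one of -0.19, and neither was called. Of the 11 receptors and partners measured, Nr0b2 (SHP), a corepressor of nuclear receptors, was called higher, with 738 ± 50.6 in DUhTP and 289 ± 65.7 in DUC, a log2 fold change of 1.38 and an adjusted p of 0.0325. Hnf4a (-0.41) and Ppara (-0.23) were not called, and with 16 added Hnf4a was called lower.

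Among 12 CAR and PXR target genes 4 were called higher and 1 lower, against 1.92% and 1.4% of all genes. The list was drawn up with earlier results of these data known, so the count is a description only. Cyp2b9 had 1382, 895 and 1105 in DUhTP and 66.1, 55.6 and 68.7 in DUC, a log2 fold change of 4.13 and an adjusted p of 0.00708. Cyp3a13, Cyp2c55 and Gstm3 had log2 fold changes of 1.35, 1.24 and 1.39. Sult1d1, a sulfotransferase, was lower on 1 of its probe sets, with a log2 fold change of -2.26 and an adjusted p of 0.0210, and its brighter probe set had -1.69 and 0.0743. The brightest genes of the list were not called, with -0.10 for Cyp3a11 and -0.28 for Cyp2c29, and Cyp2b10, the classical CAR target, overlapped with -0.15. With 16 added, Abcc2 was called lower as well. The median log2 fold change of the list was 0.10, against 0.00 over all genes. Over the 7 related lists 11 genes were called, 7 higher and 4 lower. All 7 lists were drawn up with earlier results known, so nothing is read from these counts. With 1 array left out 0 to 4 of the calls were made, with 0 without DUC replicate 2.

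**Figure D4:**
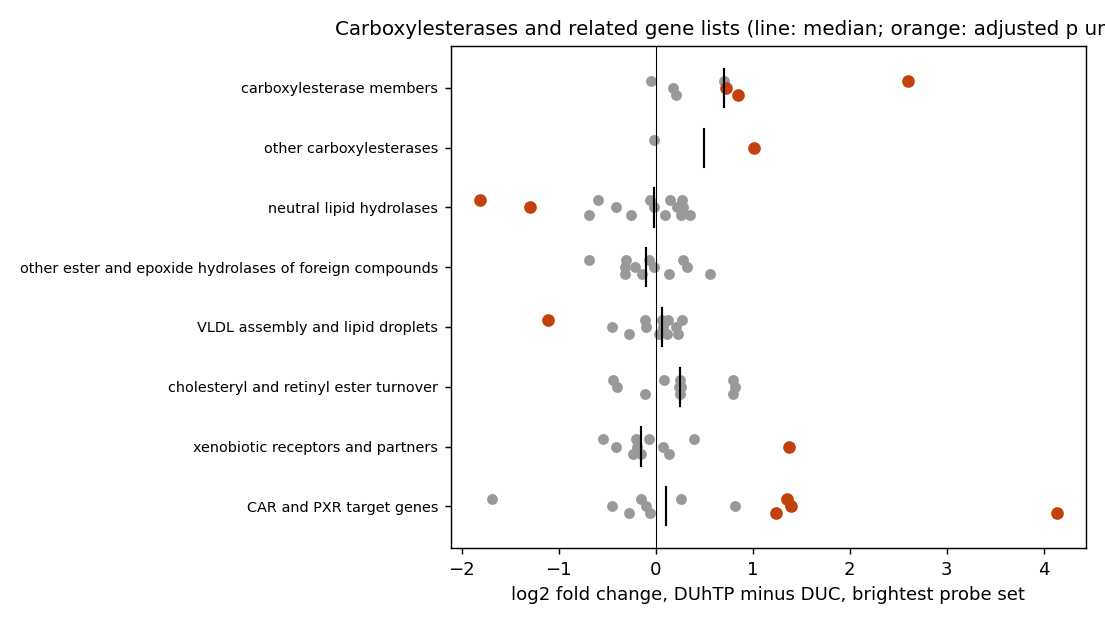
Log2 fold change, DUhTP minus DUC, of the brightest probe set of each gene in the carboxylesterase set and in 7 related lists; orange points had an adjusted p under 0.05, and black bars are list medians. The carboxylesterase values reach 2.60 with a median of 0.71, Lpl, Pnpla2 and Plin5 lie furthest left in their lists, and Rdh11 and Sult1d1 appear in grey because they were called on a dimmer probe set.

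Hepatocyte markers were abundant on every array, and their summed intensity over 9 genes was 98200 to 100002 in DUhTP and 107353 to 110507 in DUC, with Tat called lower, and Arg1 as well with 16 added. Marker sums of some other cells did not overlap between the lines, while those of kidney tubule did, and single markers inside a list differed in direction. The summed intensity of 8 leukocyte and Kupffer cell genes was 3164 to 4205 in DUhTP and 2225 to 2939 in DUC, with Clec4f called higher. With 16 added, Csf1r, Cd74, Cd68, Clec4f and Adgre1 were called higher and Marco lower, while Cd5l had a log2 fold change of -0.01. The sum of 2 erythroid genes was 1222 to 1602 in DUhTP and 706 to 799 in DUC, nearly all of it Alas2, which was called higher, and Hba-a1 had a log2 fold change of -0.08. That of 10 exocrine pancreas genes was 1010 to 4292 in DUhTP and 4966 to 9909 in DUC, with a median log2 fold change of -2.56. Of these 0 were called, but Pnliprp1, Clps, Cela3b, Prss2, Cpb1 and Ctrb1 were called lower with 16 added. For the intestinal epithelium, where Ces2 genes are also active, 5 genes summed to 937 to 1217 in DUhTP and 1340 to 1446 in DUC, most of it Fabp2 (963 and 1263), and 0 were called, with Lgals4 called lower with 16 added. Vil1, which defines that epithelium, had means of 9.02 and 5.31 (log2 fold change 0.85, adjusted p 0.231), and the adipose marker Adipoq had 8.63 and 3.71. Sums over 4 adipose genes were 174 to 202 in DUhTP and 211 to 226 in DUC, and those over 5 kidney tubule genes were 70.0 to 123 and 88.3 to 109. The part of these cells in the carboxylesterase values was not tested.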

How the data were processed

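Liver RNA of 3 DUhTP and 3 DUC arrays was analysed from the deposited table. The authors scaled the arrays in GCOS 1.1.1 and summarized each probe set with PLIER, and the deposited values are linear intensities. Array medians were 53.1 to 57.0, and the lowest correlation between arrays of a line was 0.959. Gene order, distances between gene starts and promoters came from RefSeq GRCm38.p6. A build for the array annotation is not given in the sources used here, so coordinates are printed only for the promoters. Symbols came from the array annotation, and 20351 of the 20380 probe sets with 1 symbol matched the RefSeq genes.

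After removal of 64 control probe sets, log2 intensities with no added constant were compared in limma 3.58.1 (R 4.3.3, lmFit and eBayes, line as the only term), with Benjamini-Hochberg adjustment over 22626 probe sets. A gene was called when at least 1 of its probe sets had an adjusted p under 0.05, and otherwise stands for its brightest probe set. The steps were tested on simulated data. The number of arrays limits the precision: an exact permutation test of 3 against 3 cannot give a p below 0.10.

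The members and lists were chosen with earlier results of these data known. Named by rule were all members, the called genes of each list and 2 further genes of highest mean, called neighbours, and the 3 genes most like the members with the highest and the lowest log2 fold change. Gusb, Bphl, Nr1i2, Nr1i3, the Ces1 neighbours, and genes called only with 16 added were named after their values were seen. The alternatives were 16 added, quantile normalization, the dimmest 33.3% left out, limma-trend, a replicate block, probe sets that can match several transcripts left out, and each array left out, and, chosen after seeing the data, 16 added with each array left out. The planned alignment of the proteins was not run, and protein sequences were not used here.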

Additional observations from a re-analysis of the deposited data

How the results depend on the processing

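Of 159 values of the member probe sets under the alternatives, 0 reversed a call, 17 lost one, 7 gained one and 135 stayed called or uncalled as before. The 135 include uncalled Ces1d values whose sign turned. Quantile normalization left 3 member genes called, and the median r within lines became -0.05. With 16 added, the dimmest 33.3% left out or limma-trend 4 were called, Ces2e being the one added in each. When the multi-transcript probe sets were dropped, 2 were called, Ces1e and Ces1g. The only probe set of Ces1f is of that kind, so Ces1f was removed by this step and not tested in it. With 1 array left out, 0 to 1 member genes or probe sets were called, 0 to 4 genes of the related lists and 0 neighbours, and with 16 added as well these were 3 to 4, 13 to 17 and 2 to 4. Over all probe sets 546 were called, and 1951 with 16 added, 1854 without the dimmest 33.3% and 2350 with limma-trend. With 1 array left out 1 to 122 of all probe sets were called, the 1 being without DUC replicate 2. With 16 added as well these were 771 to 1591. The number of calls thus moved over the whole array, and changes in the counts given here are not read as particular to these genes. For the related lists, 11 calls became 18 with 16 added, 18 without the dimmest 33.3% and 23 with limma-trend. For the neighbours, 2 calls became 5, 4 and 5, and 1 when the multi-transcript ones were dropped. With the replicate number as a block, 0 members, 0 list genes, 0 neighbours and 0 of all probe sets were called, and the adjusted p of Ces1g was 0.0923. Arrays with the same number deviated together with r of at most 0.07, so the numbers were not taken to pair the arrays. The causes of these differences were not tested. The proteins were not aligned. At 3 arrays per line, a member that was not called is not shown to be equal between the lines.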
